A study of Mus musculus with 22 samples.

Results

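The cells described here were noncycling basal keratinocytes of mice with esophageal squamous cell carcinoma (ESCC). They were chosen on their own unique molecular identifiers (UMIs), each of which stands for a captured transcript. A cell was kept if it held at least 10 UMIs of the basal keratins Krt5, Krt14 and Krt15 and the differentiation genes Krt4, Krt13 and Krtdap together, and if at least 0.5 of these were basal. It also had to hold under 5 UMIs of the stress keratins Krt6b and Krt16, under 5 UMIs of Krt1 and Krt10, and under 3 UMIs (or under 0.3% of its UMIs) of 9 genes of cell division, among them Top2a and Mki67. Noncycling here means low in these 9 genes, and the replication genes given below were not in the gate. The gate kept 754 of the 1500 cells from mice with ESCC, out of 4500 cells in the whole series. The levels of the gate's genes, and all differences between gated and other cells of the same mice, are therefore given as description without a test. For these differences, only whether they were other ones in ESCC than in control was tested. Mouse 8M gave 176 gated cells of 326 (54.0%), mouse 17F 286 of 513 (55.8%) and mouse 17M 292 of 661 (44.2%).

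The series profiled the peeled epithelium of the whole esophagus of C57BL/6 mice by inDrop, a droplet-based single cell RNA sequencing method. The 3 mice with ESCC, aged 8 to 10 months, had taken the carcinogen 4-nitroquinoline 1-oxide (4NQO) during 16 weeks, at 100 µg/mL with propylene glycol (2%) as the vehicle, and were then kept for 8 weeks without it. The 6 control mice were untreated, 3 of them young (3 to 4 months) and 3 old (18 to 20 months), so neither the vehicle nor the age of the ESCC mice was matched. Sex was not matched either, since 17F was the only female by its sex-linked transcripts. It held 299 UMIs of Xist and 0 of Y-linked genes. Mice 8M and 17M and all 6 control mice held 0 UMIs of Xist and 13 to 262 of Y-linked genes. The part of sex in the differences was not tested. A further 4 mice had eosinophilic esophagitis (EoE) induced with MC903 and ovalbumin, and none of their 1500 cells passed the gate: 341 held at least 10 of the keratin and Krtdap UMIs, and in 1 of these at least 0.5 were basal. The EoE cells were shallow, with a median of 138 UMIs per cell, against 3099.5 in ESCC and 990 in control. Only 74 of them held at least 500 UMIs. The absence of gated cells therefore does not show that basal cells were absent in EoE. Tumor and surrounding epithelium were not separated, so a gated cell is a basal cell of a carcinogen-treated esophagus and not necessarily a tumor cell.

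Basal cells line the basement membrane of the squamous epithelium. They express the keratin pair Krt5 and Krt14, with Krt15 as a further basal keratin, and hold on to the matrix through hemidesmosomes. Some divide there, and others leave the layer, switch to Krt4 and Krt13 and differentiate towards the lumen. The transcription factor Nrf2 (Nfe2l2) drives genes of glutathione synthesis and detoxification, and activating changes in this pathway are known from human squamous carcinomas. Immediate-early genes such as Fos and Egr1 respond within minutes to growth factors and to stress, including tissue dissociation.

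The label was checked on basal markers that the gate did not use. Col17a1, a hemidesmosomal collagen, stood at 1100, 1250 and 1126 UMIs per 1000000 UMIs of the summed cells (CPM) in the gated cells of 8M, 17F and 17M, against 471, 599 and 727 CPM in the other cells of those mice. Itga6, the integrin that binds laminin, was at 819, 1517 and 1651 CPM against 378, 939 and 1199 CPM, and Trp63, the master regulator of stratified epithelia, at 360, 520 and 486 CPM against 254, 292 and 337 CPM. All 3 were higher in the gated cells of each mouse, which is a description, since the cells were chosen on these libraries. Itgb4, also planned as a marker, is not reported here. Trp63 did not stand for other transcription factors of the basal layer. Over the 9 compared, the median difference between gated and other cells was 0.006 on the log2 scale, beside 0.03 over all genes. For 14 hemidesmosome and basement membrane genes it was 0.69. The basal keratins of the gate were also abundant in the other cells. Krt5 was at 10335, 9780 and 11465 CPM in gated and 5858, 8996 and 10501 CPM in other cells, and Krt14 at 6900, 9319 and 12053 CPM in gated and 3028, 9733 and 13892 CPM in other cells, so that in 17F and 17M Krt14 was higher in the other cells. The mice did not use the basal keratins alike. Krt14 took 33.2%, 45.6% and 49.3% of the UMIs of the basal keratins, against 18.1 to 25.8% in control cells passing the same gate. Krt15 (chr11:100131758-100135928, minus strand, GRCm38) took 17.0%, 6.49% and 3.71%, against 36.3 to 42.4% in controls. In level, Krt15 was at 3524 CPM in 8M, 1325 CPM in 17F and 907 CPM in 17M, below the 8125 to 9316 CPM of the 6 control mice. All 3 ESCC mice thus lay outside the control range for the use of Krt15, with 8M the nearest to it.

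**Figure D1:**
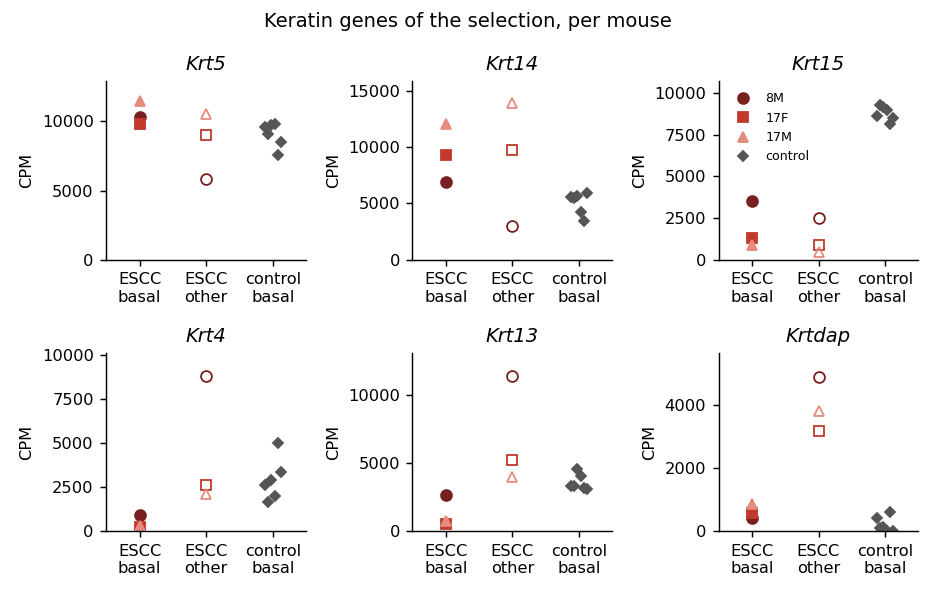
Levels in CPM of the basal keratins and the differentiation genes of the gate, with a point per mouse for gated (basal) and other ESCC cells and for the control cells that passed the gate. The gated cells of the ESCC mice show Krt15 at 907 to 3524 CPM, below all 6 control mice, and Krt14 at 6900 to 12053 CPM, above them.

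Most of the gated ESCC cells were far from the limit on the basal share. The basal share was at least 0.8 in 669 of them and at least 0.95 in 381, and 133 had no UMI of the differentiation genes. Close to the limit, 19 gated cells had a basal share of 0.5 to under 0.6, and 5 cells that met every other step lay at 0.4 to under 0.5. The limit on stress keratins cut through a denser part of the cells, with 84 gated cells at 3 or 4 UMIs and 31 cells that met every other step at 5 or 6. No UMI of the 9 division genes was found in 423 gated cells, whereas 161 held 3 or more of them but under 0.3% of their UMIs. The other 746 cells from mice with ESCC comprised 178 cycling cells, 378 with stress keratins, 4 with Krt1 and Krt10, 163 differentiated cells and 23 with fewer than 10 of the keratin and Krtdap UMIs. The stress keratin cells were unevenly spread, with 9 in 8M, 97 in 17F and 272 in 17M.

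**Figure D2:**
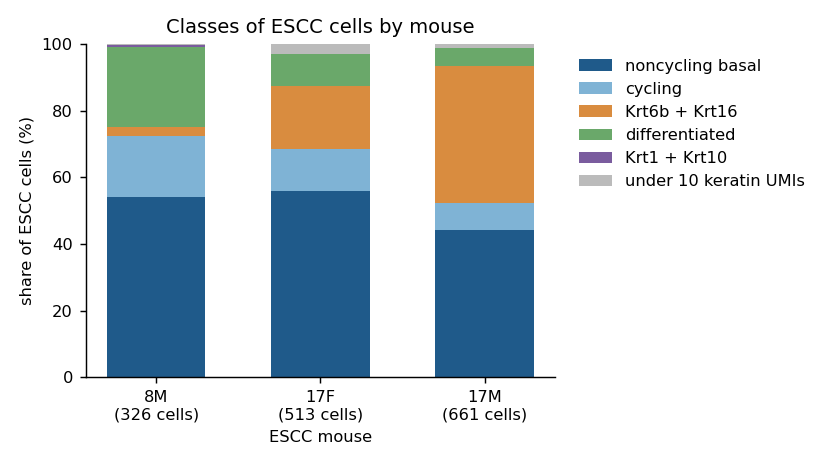
Cells of each mouse by class, as a percentage of the mouse's cells, for the 3 ESCC mice. Gated noncycling basal cells made up 54.0%, 55.8% and 44.2% of cells in the ESCC mice 8M, 17F and 17M, and the stress keratin class (Krt6b + Krt16) held 9 cells in 8M, 97 in 17F and 272 in 17M.

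Depth differed between the groups. The gated cells held 568964 to 861025 UMIs per mouse in ESCC and 48322 to 98829 in control, with a median of 2718.5 and 917 UMIs per cell. Each ESCC and control mouse had 2 libraries, and these shared cell barcodes (117 in ESCC, 122 in control) whose profiles correlated at 0.812 to 0.883 in ESCC, against 0.515 to 0.549 for other pairs of cells. The 754 gated cells therefore carried 698 barcodes, and the mouse, with both libraries summed, was the replicate throughout. None of the gated cells was called non-epithelial by its markers, and 6 were called doublets. The gate itself required basal keratin UMIs, so the absence of non-epithelial calls is not a separate check of purity. A batch is not named in the labels and cannot be told apart from the condition. The p-values below measure the spread between mice.

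Whether noncycling basal cells were more frequent in ESCC was asked after each cell had been thinned to 500 UMIs, since the gate counts UMIs. The gated share was then 41.7% in 8M, 44.4% in 17F and 55.7% in 17M, and ranged from 26.1% to 47.9% in the control mice. The mean was 47.3% ± 7.40 (SD, n = 3) in ESCC and 34.5% ± 8.84 (SD, n = 6) in control, a difference of 12.7 percentage points that did not exceed the spread between mice (two-sided exact permutation test, p = 0.119, where the smallest possible p is 0.0238). Without thinning, the means were 51.3% ± 6.24 and 37.7% ± 10.9. Thinned to 1000 UMIs, which kept all 1500 ESCC cells and 738 of the 1500 control cells, the difference was 24.7 points (exact permutation test, p = 0.0476). The limits on stress keratins, Krt1 and Krt10 and division genes count UMIs, so a thinned cell can pass a limit it had failed. In 17M the gated share of the same 661 cells was 44.2% unthinned, 55.7% at 500 and 54.5% at 1000 UMIs. In 8M it was 54.0%, 41.7% and 51.8%, and in 17F 55.8%, 44.4% and 58.5%. The thinned shares thus include cells outside the population described here and cannot decide whether that population was more frequent.

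The gated cells of the ESCC mice were then compared with the 511 control cells that passed the same gate, with edgeR's quasi-likelihood test after the UMIs of each mouse had been summed. Of 2316 genes tested, 398 (17.2%) were higher in ESCC and 330 (14.2%) lower at an adjusted p under 0.05, with the genes of the gate left out. The median log2 fold change over the tested genes was -0.0039. The scaling between mice (TMM) sets the bulk of genes near 0, so this median cannot show whether the bulk moved. Changes are relative to that bulk. A gene was tested if it reached about 10 UMIs in at least 3 mice, scaled to the size of a typical library, which kept mostly genes of higher level. A gene high in the 3 ESCC mice alone could enter the test and a gene equally low in both groups could not.

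Many of the genes that rose most are ones whose reads could be split with near-identical copies. Gapdh, a glycolytic enzyme used in every cell, stood at 1615, 1714 and 1615 CPM in the gated cells of 8M, 17F and 17M and at 0 to 12.5 CPM in control. Ppia, a cyclophilin, was at 1162, 909 and 657 CPM against 0 to 30.7 CPM, and Ftl1, the ferritin light chain, at 1515, 1084 and 1081 CPM against 0 to 74.3 CPM. Among tested genes that share at least 10% of the 31-base sequences at the end of a transcript with another annotated gene, 109 of 355 (30.7%) were higher, and 62 of 79 ribosomal protein genes (78.5%) were, against 223 of 1862 genes without a copy (12.0%). Of the genes without a copy, 287 (15.4%) were lower. Whether reads shared between copies were counted in the same way in both groups was not tested, so a difference in counting and a difference in RNA cannot be told apart for genes with a copy. The genes described next have no copy by this measure unless stated, and were named by the size of their fold change after the values had been seen. Genes named by fold change also had to show no overlap between the mice of the groups, so that trait was fixed by the choice. Over all called genes, 482 of 728 showed no overlap.

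Among these, Slc7a11, the cystine-glutamate exchanger that imports the cystine for glutathione, separated the groups most widely. It was at 225 CPM in 8M, 475 CPM in 17F and 689 CPM in 17M, with 1049 UMIs in all, and none of the 6 control mice had a UMI in gated cells. Against a floor of 3 UMIs over the control group (6.06 CPM) it was at least 79.7-fold higher (edgeR, adjusted p = 7.98e-09). The gene lies on chr3:49892526-50443614, minus strand, of GRCm38. Spink5, an inhibitor of the kallikrein proteases of squamous epithelium, was at 269, 250 and 583 CPM in 8M, 17F and 17M and at 0 to 50.6 CPM in controls, a log2 fold change of 4.56 ± 0.44 (SE; edgeR, adjusted p = 1.36e-08). Both genes were higher in 3 of 3 ESCC mice than in any control mouse, as their choice required.

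Several further genes were higher in each ESCC mouse than in any control mouse, again a condition of the choice. Fabp5, a fatty acid-binding protein, was at 1367, 1938 and 2604 CPM in 8M, 17F and 17M against 145 to 317 CPM in controls, up by 3.46 ± 0.23 on the log2 scale (edgeR, adjusted p = 1.04e-11). Mt2, a metal-binding metallothionein, was at 1026, 936 and 907 CPM against 50.1 to 228 CPM, up by 3.54 ± 0.26 (edgeR, adjusted p = 1.09e-10). The translation elongation factor gene Eef1g was at 837, 813 and 697 CPM against 42.4 to 87.6 CPM, up by 3.85 ± 0.22 (edgeR, adjusted p = 1.10e-12). The carbonic anhydrase gene Car2 was at 104, 305 and 252 CPM against 0 to 52.5 CPM, up by 3.82 ± 0.48. Mt2 and Eef1g varied little between the ESCC mice, whereas Fabp5 and Car2 were lowest in 8M.

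B2m, the light chain of major histocompatibility complex class I, was at 3067, 2012 and 1591 CPM in the ESCC mice, against 117 to 973 CPM in controls with a median of 173 CPM (log2 fold change 3.37 ± 0.39; edgeR, adjusted p = 3.26e-07). The highest control value came from mouse old-3, with the next at 202 CPM. H2-K1, a class I heavy chain with annotated copies, was at 1619, 1485 and 1227 CPM against 87.6 to 310 CPM. Of the 21 listed genes of class I presentation and the interferon response, 6 were tested and 4 were higher, beside 17.2% of all tested genes. H2-K1, H2-D1 and Tapbp of these have copies, which leaves 1 of 3 without one, B2m. No listed class II gene was high enough to be tested. Summed immune cell markers, led by the macrophage gene Lyz2, stood at 127 to 162 CPM in the gated ESCC cells and 0 to 53.1 CPM in control, and their part in these values was not tested.

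**Figure D3:**
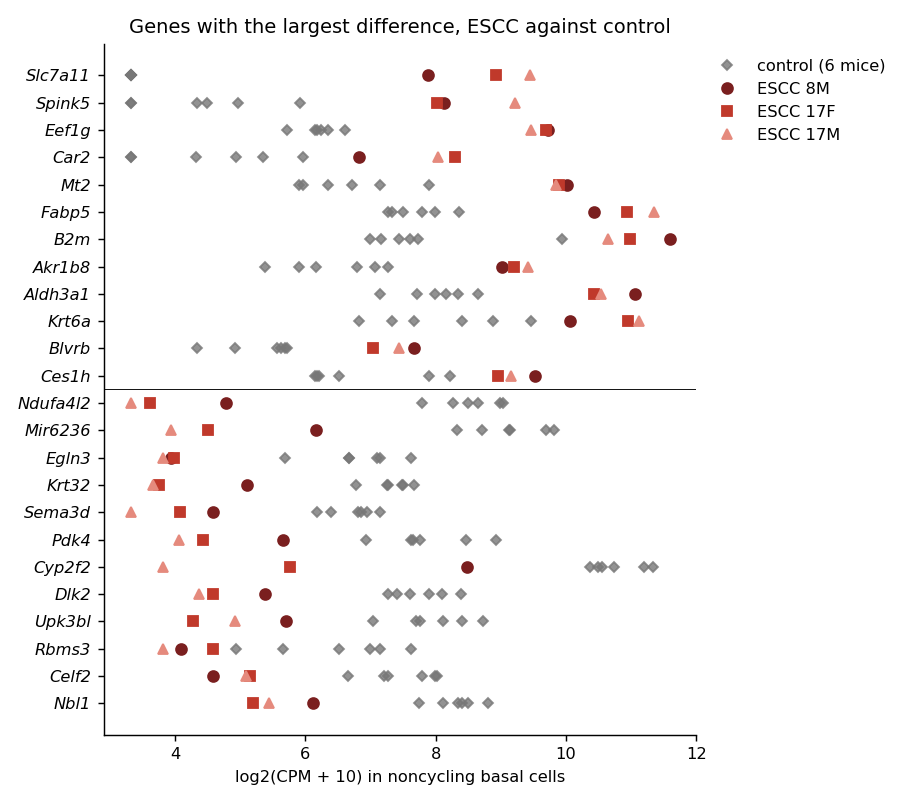
Levels in the gated cells, as log2(CPM + 10), of the genes without a copy that changed most between ESCC and control, with a point for each of the 3 ESCC and 6 control mice. Slc7a11 is at 225 to 689 CPM in the ESCC mice and at 0 in all control mice, and Ndufa4l2 at 0 to 17.6 CPM against 212 to 512 CPM.

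The antioxidant and detoxification genes that Nrf2 is known to drive rose in large part. Of 26 listed genes 20 were tested, and 18 of them were higher in ESCC, beside 17.2% of all tested genes, with a median log2 fold change of 1.54. Gstm1 did not pass the test. Fth1, the ferritin heavy chain, was lower (edgeR, adjusted p = 0.0400), but not with no filter on low counts (edgeR, adjusted p = 0.162) or without 17F, 17M, old-5, young-1 or young-2. Without copies, 13 of 13 tested genes were higher. With no filter on low counts all 26 genes could be tested, and 21 were higher and 0 lower (edgeR). Leaving out each mouse in turn gave 17 or 18 higher genes. Against the young control mice alone 19 of 25 tested genes were higher, and against the old alone 18 of 25.

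Glutathione synthesis was up at both subunits of its first enzyme, glutamate-cysteine ligase. The catalytic subunit Gclc was at 914, 974 and 1141 CPM in 8M, 17F and 17M and at 149 to 289 CPM in controls (log2 fold change 2.51 ± 0.20; edgeR, adjusted p = 2.74e-10). The modifier subunit Gclm was at 1434, 1845 and 2015 CPM against 578 to 849 CPM (1.60 ± 0.18; edgeR, adjusted p = 1.26e-07). The glutathione transferase Gsta4, which clears lipid aldehydes, was at 2735, 2475 and 2969 CPM against 698 to 1159 CPM (1.74 ± 0.18). All 3 genes were higher in each ESCC mouse than in every control mouse. Slc3a2, the heavy chain that carries Slc7a11 to the membrane, was at 283, 465 and 483 CPM against 112 to 212 CPM (1.52 ± 0.22; edgeR, adjusted p = 8.51e-06).

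Enzymes that detoxify aldehydes and quinones rose as well. Aldh3a1, an aldehyde dehydrogenase, was at 2125, 1370 and 1467 CPM against 131 to 393 CPM (log2 fold change 2.96 ± 0.24; edgeR, adjusted p = 4.48e-10). Nqo1, the quinone reductase often used as a readout of Nrf2, was at 533, 347 and 432 CPM against 70.8 to 175 CPM (2.03 ± 0.24; edgeR, adjusted p = 2.90e-07). Akr1b8, an aldo-keto reductase that was not in the list, was at 510, 580 and 674 CPM against 31.8 to 145 CPM (3.10 ± 0.26; edgeR, adjusted p = 1.16e-09). Unlike Slc7a11, Aldh3a1 and Nqo1 were highest in 8M. Other enzymes outside the list were the carboxylesterase Ces1h, at 722, 488 and 563 CPM against 60.7 to 289 CPM, and the biliverdin reductase Blvrb, at 193, 121 and 163 CPM against 10.2 to 42.4 CPM.

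Pentose phosphate enzymes, which supply the NADPH that keeps glutathione reduced, were among the listed genes that rose. Pgd was at 297, 282 and 350 CPM against 111 to 202 CPM (log2 fold change 1.27 ± 0.21; edgeR, adjusted p = 3.74e-05). Taldo1 was at 399, 468 and 511 CPM against 182 to 313 CPM (1.07 ± 0.18; edgeR, adjusted p = 8.09e-05). Both were higher in 3 of 3 ESCC mice than in any control mouse. The classic target Hmox1, encoding heme oxygenase, was too low to be tested, at 31.6, 66.2 and 70.0 CPM against 0 to 21.2 CPM.

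The promoters of the listed genes were searched for the core of the antioxidant response element that Nrf2 binds, TGACNNNGC on either strand. The search covered the 250 bases before each RefSeq start (GRCm38.p6). The core was found for 6 of the 21 listed genes with a promoter in the table, for 5 of the 15 called higher, and for 3112 of 27025 genes in all (11.5%). Of the 10 higher genes without a copy it was found for Gclm and Ugdh, whose sequences are shown because these are the promoters of called genes free of copies that hold the core. They are given 5′ to 3′ on the strand of the gene, with the core in capitals, which reads as GCNNNGTCA where it lies on the opposite strand. The Gclm sequence is chr3:122245307-122245556, plus strand, with its core starting 134 bases before the start. The Ugdh sequence is chr5:65435843-65436092, minus strand, with 2 cores. Ugdh encodes the enzyme that makes UDP-glucuronic acid, and was at 248, 253 and 301 CPM against 100 to 255 CPM (log2 fold change 1.01 ± 0.23; edgeR, adjusted p = 0.00137), and missed the threshold against the young control mice alone (edgeR, adjusted p = 0.0582). A match describes the letters alone, and whether Nrf2 acted on these genes was not tested.
Gclm: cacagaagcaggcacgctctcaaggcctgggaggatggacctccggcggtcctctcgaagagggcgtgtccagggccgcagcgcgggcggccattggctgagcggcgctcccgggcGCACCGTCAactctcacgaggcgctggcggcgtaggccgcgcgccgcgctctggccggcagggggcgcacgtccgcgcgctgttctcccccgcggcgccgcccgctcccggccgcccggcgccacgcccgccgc
Ugdh: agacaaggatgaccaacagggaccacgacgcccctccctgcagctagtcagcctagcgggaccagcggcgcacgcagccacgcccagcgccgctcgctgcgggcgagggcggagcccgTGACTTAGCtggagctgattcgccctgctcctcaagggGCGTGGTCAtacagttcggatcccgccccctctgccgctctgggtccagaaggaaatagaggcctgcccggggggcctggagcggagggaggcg

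The immediate-early genes went the other way. Of 16 listed genes 14 were tested, and 10 were lower in ESCC and 0 higher, beside 14.2% of all tested genes lower, with a median log2 fold change of -1.05 and no copy for any tested member. Fos, a subunit of the AP-1 transcription factor, was at 2088, 1423 and 1912 CPM in 8M, 17F and 17M against 4615 to 8510 CPM in controls (-1.54 ± 0.22; edgeR, adjusted p = 7.29e-06). Egr1, a zinc finger factor induced by growth factors, was at 598, 296 and 432 CPM against 1623 to 2798 CPM (-1.99 ± 0.24; edgeR, adjusted p = 6.31e-07). Fosb was at 404, 333 and 502 CPM against 931 to 3127 CPM, and the nuclear receptor Nr4a1 at 337, 242 and 253 CPM against 584 to 1235 CPM. Jun, Junb, Atf3, Klf6, Zfp36 and Dusp1 were the other genes that fell. Myc, at 366, 193 and 210 CPM against 188 to 801 CPM, did not pass the test. The sum over the list was 6655 to 10082 CPM in ESCC and 18527 to 31201 CPM in control. The fall was found against young control mice alone (9 of 14 genes) and against old ones alone (11 of 14).

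**Figure D4:**
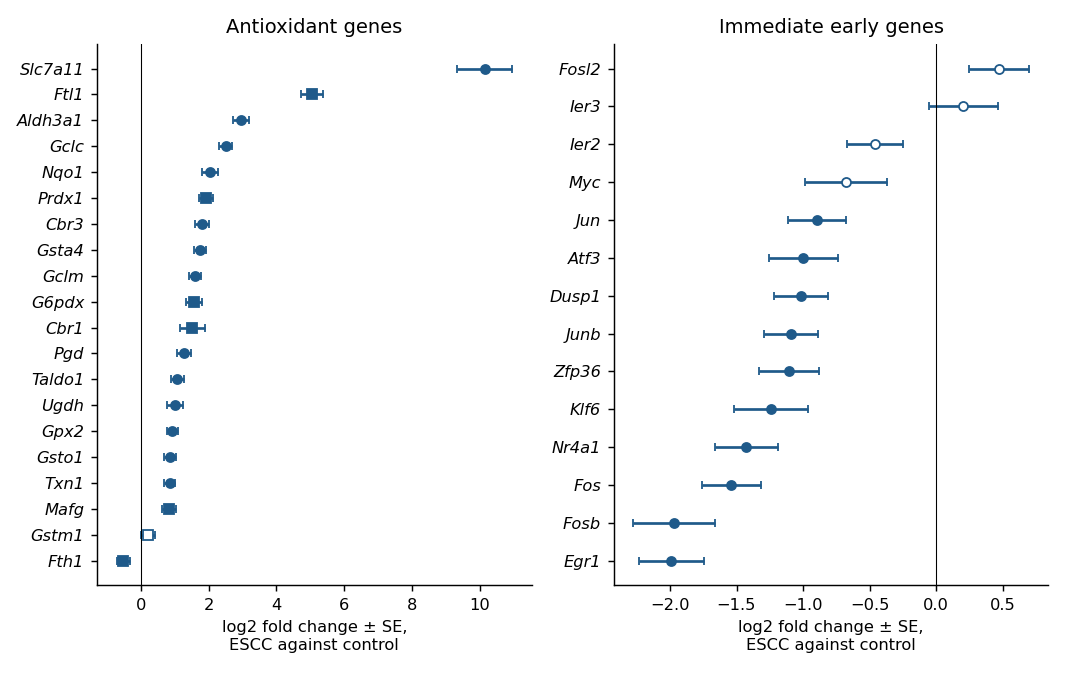
Log2 fold change, ESCC against control in gated cells, with its SE (bars), for each tested gene of the antioxidant list and of the immediate-early list. Filled symbols passed the test (18 of 20 antioxidant genes were higher and 10 of 14 immediate-early genes lower), and squares mark genes with a copy. The point of Slc7a11, which had no UMI in control, depends on the prior count of the fit.

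Ndufa4l2, a mitochondrial protein induced in low oxygen, fell most among the named genes. It was at 17.6, 2.32 and 0 CPM in 8M, 17F and 17M against 212 to 512 CPM in controls (log2 fold change -5.70 ± 0.48; edgeR, adjusted p = 1.28e-09). Egln3, a prolyl hydroxylase that marks hypoxia-inducible factors for decay, was at 5.27, 5.81 and 4.04 CPM against 41.4 to 188 CPM (-4.16 ± 0.52; edgeR, adjusted p = 9.11e-07). Pdk4, a kinase that switches off pyruvate dehydrogenase, was at 40.4, 11.6 and 6.73 CPM against 112 to 476 CPM (-3.54 ± 0.45; edgeR, adjusted p = 1.12e-06). No ESCC mouse reached the lowest control mouse for any of the 3, as their choice required. In the list of glycolysis and hypoxia genes, 4 of 12 tested genes were higher and 4 lower, beside 17.2% and 14.2% of all tested genes. Among the 6 without a copy, 1 was higher and 3 were lower. Slc2a1, the glucose transporter of basal keratinocytes, was at 246, 310 and 363 CPM against 82.8 to 212 CPM (1.16 ± 0.22; edgeR, adjusted p = 0.000216). The pyruvate kinase gene Pkm was at 714, 933 and 844 CPM against 202 to 290 CPM and Tpi1, another glycolytic enzyme, at 104, 124 and 120 CPM against 250 to 373 CPM. Both of these have copies.

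Other genes that fell encode secreted signals, a keratin, a cytochrome and RNA-binding proteins. Dlk2, a membrane protein of the Notch ligand family, was at 31.6, 13.9 and 10.8 CPM against 145 to 325 CPM (-3.32 ± 0.35; edgeR, adjusted p = 6.78e-08). Nbl1, a secreted antagonist of bone morphogenetic proteins, was at 59.8, 26.7 and 33.6 CPM against 205 to 435 CPM (-2.75 ± 0.29; edgeR, adjusted p = 7.50e-08). Sema3d, a secreted semaphorin, was at 14.1, 6.97 and 0 CPM against 62.1 to 132 CPM (-3.60 ± 0.60; edgeR, adjusted p = 5.26e-05). None of these overlapped with controls, which was a condition of the choice. The keratin Krt32 was at 24.6, 3.48 and 2.69 CPM against 100 to 192 CPM. The cytochrome P450 gene Cyp2f2 was at 348, 44.1 and 4.04 CPM against 1309 to 2566 CPM. The ESCC mice were spread more widely than the controls as a ratio, but not in CPM. The RNA-binding proteins Rbms3 and Celf2 and the uroplakin relative Upk3bl completed the named genes that fell, with log2 fold changes of -3.20, -2.77 and -3.24, beside reads at the Mir6236 locus (-4.33), which do not measure a mature microRNA in this assay. H19, an imprinted RNA for which a copy is annotated, was at 130, 62.7 and 14.8 CPM against 331 to 3098 CPM.

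Hemidesmosome and basement membrane genes, which anchor the basal layer, mostly did not pass the test. None of 13 tested genes was higher and 3 were lower, a share near the 14.2% of all tested genes that were lower, and the median log2 fold change was 0.00. Dst, which ties keratin filaments to the hemidesmosome, was at 1134, 611 and 672 CPM against 1581 to 2316 CPM (-1.02 ± 0.22; edgeR, adjusted p = 0.000971). Plec, the plakin beside it, was at 343, 303 and 261 CPM against 446 to 766 CPM (-0.78 ± 0.21; edgeR, adjusted p = 0.00541). Lama3, a laminin chain, was at 86.1, 77.8 and 91.5 CPM against 133 to 184 CPM (-0.69 ± 0.22; edgeR, adjusted p = 0.0171), and this call was lost without mouse 17F (edgeR, adjusted p = 0.128) or 17M (edgeR, adjusted p = 0.0565). For Col17a1 the fold change was 0.00 ± 0.16 on the log2 scale. Itga6 was at 819, 1517 and 1651 CPM against 890 to 1603 CPM and did not pass (edgeR, adjusted p = 0.0708).

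Transcription factors of the basal layer were split, with 1 of 7 tested higher and 2 lower, beside 17.2% and 14.2% of all tested genes. Of 7 tested, Pitx1 was higher, at 859, 1022 and 1046 CPM against 358 to 559 CPM (log2 fold change 1.38 ± 0.19; edgeR, adjusted p = 2.88e-06), while Sox2 and Klf5 were lower. Sox2, which specifies the foregut epithelium, was at 327, 222 and 227 CPM against 373 to 880 CPM (-0.94 ± 0.24; edgeR, adjusted p = 0.00380). Klf5 was at 1352, 985 and 1136 CPM against 1778 to 2504 CPM (-0.63 ± 0.19; edgeR, adjusted p = 0.0121), and was not called without 17F (edgeR, adjusted p = 0.129) or 17M (edgeR, adjusted p = 0.0659). Trp63 was at 360, 520 and 486 CPM against 331 to 826 CPM and did not pass (edgeR, adjusted p = 0.205).

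The signaling lists had few genes high enough to be tested, and their calls stand beside 17.2% of all tested genes higher and 14.2% lower. In the Wnt list, Ctnnb1, which encodes beta-catenin, was at 118, 98.7 and 87.5 CPM against 393 to 808 CPM (log2 fold change -2.34 ± 0.22; edgeR, adjusted p = 9.65e-09), and it was 1 of 2 called genes among 7 tested. The other, the secreted Wnt inhibitor Sfrp1, was higher by 0.68 ± 0.24 (edgeR, adjusted p = 0.0296), and lost this call without 17F, 17M, old-4, old-5, young-1 or young-2 (edgeR, adjusted p = 0.0506 to 0.119). In the Notch list, Jag2, a ligand of basal cells, was at 167, 154 and 164 CPM against 248 to 591 CPM (edgeR, adjusted p = 0.00278) and was the only call among 5 tested genes. In the EGF receptor list 3 of 4 tested genes were lower and none was higher, beside 14.2% of all tested genes lower, but with a mouse left out 1 to 3 were lower, with 1 without 17F or old-5, and none of 2 tested at a basal share of at least 0.8. Errfi1, a feedback inhibitor of the receptor, was at 42.2, 53.4 and 33.6 CPM against 84.9 to 225 CPM (-1.45 ± 0.31; edgeR, adjusted p = 0.000799). Erbb3, a receptor of the family, was at 47.5, 34.8 and 29.6 CPM against 74.3 to 145 CPM (edgeR, adjusted p = 0.00770), and missed the threshold without 17F (edgeR, adjusted p = 0.0525) or 17M (edgeR, adjusted p = 0.0540). The ligand gene Hbegf was at 84.4, 116 and 148 CPM against 117 to 434 CPM and was called (edgeR, adjusted p = 0.0355) but not without 17F (0.107), 8M (0.0514), old-5 (0.126) or young-1 (0.0539). None of 4 tested genes of bone morphogenetic protein and TGF-beta signaling was called.

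Of the genes linked to invasion and matrix, 7 of 23 were tested. Cd44, a hyaluronan receptor, was at 598, 757 and 701 CPM against 304 to 631 CPM (log2 fold change 0.86 ± 0.20; edgeR, adjusted p = 0.00179). In CPM, which lack the TMM scaling of the test, 8M lay within the control range. Sparc, a matrix-binding protein, was lower, at 56.2, 27.9 and 29.6 CPM against 111 to 325 CPM (-2.23 ± 0.32; edgeR, adjusted p = 8.36e-06). Summed fibroblast markers were at 197, 23.2 and 17.5 CPM in 8M, 17F and 17M and at 164 to 579 CPM in control, carried by Dcn, with 8 of the 9 markers at 0 in control. Sparc is also a fibroblast gene, and the part of such RNA in its value was not tested.

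The gate capped 9 division genes, so low levels of division genes describe the choice of cells. Over the 23 listed replication genes, gated cells of 8M, 17F and 17M held 1287, 1980 and 1873 CPM. The other cells of these mice held 992, 1177 and 1261 CPM, and the cycling class 1784, 1977 and 2531 CPM. Whether cells that copy their DNA remained among the gated cells was not tested. Top2a, which is part of the gate, was still at 123, 159 and 155 CPM in gated ESCC cells and 20.7 to 117 CPM in control. Of 7 tested replication genes outside the gate 3 were higher and none was lower, beside 17.2% of all tested genes higher. They were Mcm6 as well as Mcm4 and Mcm5, parts of the helicase that opens DNA. Mcm4 and Mcm5 were at 94.9, 215 and 202 CPM and at 116, 216 and 217 CPM in 8M, 17F and 17M, against 40.9 to 149 CPM and 71.6 to 118 CPM in controls. Both passed the test (edgeR, adjusted p = 0.000799 and 0.000728), and both have copies. Mcm6, which has no copy, was called with a log2 fold change of 0.78 ± 0.27 (edgeR, adjusted p = 0.0321) but not without 17F (edgeR, adjusted p = 0.227), 17M, old-3, old-4, old-5 or young-1. Cdkn1a, the p21 inhibitor of cyclin-dependent kinases, was at 402, 231 and 339 CPM against 82.8 to 223 CPM (1.35 ± 0.25; edgeR, adjusted p = 0.000187). Cdkn1b, the p27 inhibitor, moved the other way, at 49.2, 43.0 and 52.5 CPM against 92.0 to 200 CPM (-1.23 ± 0.28; edgeR, adjusted p = 0.00174). Of the 18 listed targets of p53 only 4 were tested, with Cdkn1a and Phlda3 higher and the antiproliferative gene Btg2 lower (-1.50; edgeR, adjusted p = 4.61e-05). Phlda3 was not called against the young control mice alone (edgeR, adjusted p = 0.198) or with a basal share of at least 0.8 (edgeR, adjusted p = 0.0554).

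Stress keratins outside the gate were high even though the gate capped Krt6b and Krt16. Krt6a, a close relative of Krt6b, was at 1060, 1963 and 2211 CPM in 8M, 17F and 17M against 103 to 695 CPM in controls (log2 fold change 2.64 ± 0.32; edgeR, adjusted p = 4.41e-07). Krt17 was at 112, 491 and 336 CPM against 30.4 to 133 CPM (2.24 ± 0.38; edgeR, adjusted p = 7.87e-05), with 8M inside the control range in CPM, before TMM scaling. Among the heat shock genes 4 of 10 tested were higher, beside 17.2% of all tested genes, and none was lower, but 3 of the 4 (Hspb1, Hspa8 and Dnaja1) have copies. Hspa1b, an inducible chaperone whose transcript end has no copy by this measure but whose coding part is close to that of Hspa1a, was at 796, 1219 and 1089 CPM against 313 to 657 CPM (1.42 ± 0.21; edgeR, adjusted p = 1.02e-05). Hspb1 was higher by 3.93 on the log2 scale.

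Genes of later differentiation moved both ways in these cells. Of 6 tested genes of the cornified layer, Spink5 and Lypd3 were higher and Evpl and Ppl lower, beside 17.2% and 14.2% of all tested genes. Ppl, a plakin of the cornified envelope, was at 52.7, 19.7 and 18.8 CPM against 78.8 to 188 CPM (-1.93 ± 0.40; edgeR, adjusted p = 0.000645). The calls for Lypd3 (0.67, edgeR, adjusted p = 0.0333) and Evpl (-1.02, edgeR, adjusted p = 0.0339) were lost when mouse 17F was left out (edgeR, adjusted p = 0.0585 and 0.178). Lypd3 also lost it without 8M, 17M, old-3, young-2 or young-6, and Evpl without 17M, old-3, old-4 or young-1. Among genes of amino acid supply under the factor Atf4, 4 of 6 tested were higher, beside 17.2% of all tested genes. Shmt2, the mitochondrial serine hydroxymethyltransferase, was at the edge (edgeR, adjusted p = 0.0485) and lost its call by DESeq2 and without 17F, 17M, old-4, old-5, young-1, young-2 or young-6. Atf4 itself was at 207, 202 and 207 CPM against 63.7 to 163 CPM (1.04 ± 0.23; edgeR, adjusted p = 0.00141). Scd2, a fatty acid desaturase, was at 98.4, 278 and 280 CPM against 0 to 132 CPM (1.98 ± 0.38; edgeR, adjusted p = 0.000302) and was the only call among 3 tested genes of sterol and fatty acid synthesis.

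Set against the other cells of the same ESCC mice, the gated cells stood apart mainly by what they lacked. Of 6033 genes compared, 7 (0.116%) were at least 2-fold higher and 88 (1.46%) at least 2-fold lower in gated cells in each of the 3 mice, on the scale of log2(CPM + 10). The gate chose the cells on these libraries, so this is a description without a test. Smoc2, a matricellular protein, was at 181, 179 and 194 CPM in gated cells of 8M, 17F and 17M and at 77.3, 54.7 and 56.7 CPM in the others. Hpgd, which degrades prostaglandins, was at 404, 612 and 694 CPM against 190, 187 and 240 CPM. The other genes higher in gated cells were Dusp6, a phosphatase that limits ERK signaling, the transmembrane glycoprotein Gpnmb, the Notch ligand Dll1, the GTPase-activating protein Arhgap25 and the protease Adamts1, with median differences of 1.30, 1.30, 1.18, 1.09 and 1.05 on the log2 scale.

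The 10 genes that were lower by most included 3 of the listed genes of the cornified layer (Sprr1a, Sprr1b and Cnfn). The protease inhibitor Serpinb3a was at 3.51, 4.65 and 14.8 CPM in gated cells of 8M, 17F and 17M, against 291, 359 and 457 CPM in the others. Ly6d, a surface protein of committed keratinocytes, was at 782, 196 and 164 CPM against 2552, 1648 and 1590 CPM, so that gated cells of 8M kept more of it than those of the other mice. Serpinb12, Slpi, Endou, Chil4, Elovl4, Sprr1a, Sprr1b and Cnfn followed, with median differences of -4.09 to -2.97. Of 13 cornified layer genes compared, 12 were at least 2-fold lower in each mouse, whereas none of 14 hemidesmosome and basement membrane genes was at least 2-fold higher in each, their median difference being 0.69 beside 0.03 over all genes. Values near 0 make these differences smaller on this scale than as a ratio.

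**Figure D5:**
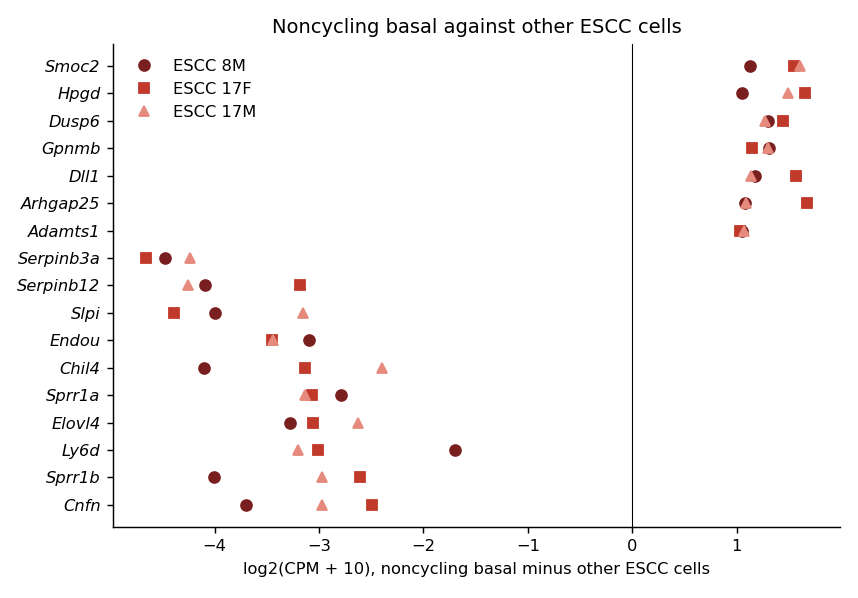
Gated cells against other cells of the same ESCC mouse, as the difference in log2(CPM + 10), for the genes that met the 2-fold limit in each mouse and were named, with a point per mouse. Smoc2 lies between 1.13 and 1.61 and Serpinb3a between -4.65 and -4.24.

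A change in the gated cells need not be particular to them. The interaction of gate and group, with the mouse as a block, asked for which genes the step from other to gated cells was another one in ESCC than in control. Of 5567 genes tested, 124 (2.23%) had a larger value in ESCC and 60 (1.08%) a smaller one (edgeR, adjusted p under 0.05). The other cells were not of the same make-up in both groups, since 776 of the 989 in control and 163 of the 746 in ESCC were differentiated, and the part of this in the interaction was not tested. Immediate-early genes gave no interaction in either direction among 14 tested, at an adjusted p under 0.05, so no difference of their fall between gated and other cells was shown.

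The 6 genes named for a positive interaction held few or no UMIs in gated control cells. Spink5 was at 0 to 50.6 CPM in gated and 390 to 1262 CPM in other control cells, and at 269, 250 and 583 CPM in gated and 923, 1102 and 1249 CPM in other ESCC cells (interaction 4.11 ± 0.37 on the log2 scale; edgeR, adjusted p = 5.53e-12). Grhl1, a transcription factor of differentiating epithelium, was at 10.5, 27.9 and 37.7 CPM in the gated ESCC cells, against 1 UMI over all gated control cells and 91.2 to 240 CPM in other control cells (4.53 ± 0.86; edgeR, adjusted p = 0.000455). Pea15a, Sgpp2 and Crabp2 gave interactions of 4.31, 4.14 and 3.92, and the gated control cells held 1, 1 and 3 UMIs of them. For Slc7a11 the interaction was 5.51 ± 1.44 (edgeR, adjusted p = 0.0180), with 0 to 38.9 CPM in other control cells and 319, 606 and 846 CPM in other ESCC cells. That call was lost without old-4 (edgeR, adjusted p = 0.0722) or old-5 (edgeR, adjusted p = 0.0836). DESeq2 (adjusted p = 0.0900) and a basal share of at least 0.8 (edgeR, adjusted p = 0.333) also lost it. In level Slc7a11 was high in gated and other ESCC cells alike.

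Genes with a negative interaction rose less, or fell more, in gated cells than in the others. Krt6a was at 1060, 1963 and 2211 CPM in gated and 3096, 7636 and 8455 CPM in other ESCC cells, and at 103 to 695 CPM in gated and 62.4 to 485 CPM in other control cells (-1.98 ± 0.20; edgeR, adjusted p = 1.65e-10). The gate capped Krt6b and Krt16 in the gated cells, and the part of that limit in the value of Krt6a was not tested. Urah, Igfbp3 and Upk3bl had interactions of -2.26, -2.18 and -1.94. Rgs2, a regulator of G protein signaling, had one of -2.31 ± 0.59 (edgeR, adjusted p = 0.0132) that was lost without 17F (edgeR, adjusted p = 0.304). The Rgs2 call was also lost at a basal share of at least 0.8 (edgeR, adjusted p = 0.297). It was lost too with doublets, non-epithelial cells and cells outside the study's limits left out (edgeR, adjusted p = 0.440). Krt17 had one of -2.11 (edgeR, adjusted p = 0.0227) that was lost without 17M (0.151), old-5, young-1, young-2 or young-6, and by DESeq2 (adjusted p = 0.137). With cells thinned to 1000 UMIs, 8 of the 12 genes named for the interaction no longer passed the test, Pea15a was not tested, and Spink5, Crabp2 and Krt6a passed.

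By list, 8 of 25 tested antioxidant genes had a positive interaction, beside 2.23% of all tested genes, and 1, Gsr, a negative one. Aldh3a1 led the 8 by its test (1.67; edgeR, adjusted p = 4.21e-10), followed by Gsta4 (1.17; edgeR, adjusted p = 1.79e-09), while Gclc (0.14) and Gclm (-0.01) had interactions near 0. With cells thinned to 1000 UMIs 3 of 22 were positive. In level, the antioxidant genes were not higher in gated than in other ESCC cells. The list summed to 30563, 25293 and 27751 CPM in gated cells of 8M, 17F and 17M and 33097, 26520 and 30529 CPM in the others. Aldh3a1 was at 2125, 1370 and 1467 CPM in gated and 2801, 1445 and 1566 CPM in other ESCC cells. Of 15 tested genes of sterol and fatty acid synthesis 9 were positive, with 3 (without 17M) to 11 (without 8M) when a mouse was left out, among them Hmgcs1 and Sqle, but 2 by DESeq2 and 1 of 12 in thinned cells. Of 13 tested hemidesmosome and basement membrane genes 6 were negative, beside 1.08% of all tested genes, with Col17a1 at -0.75 and Itga6 at -0.70. By DESeq2 1 was negative, with a basal share of at least 0.8 none, and with a mouse left out 0 (without 17M) to 10 (without 8M).

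The 3 ESCC mice differed among themselves. For each gene below the libraries of a mouse lay closer to each other than to those of the mouse at the other end. This was a condition of the choice, and the libraries of a mouse shared cell barcodes. S100a8 and S100a9, the subunits of the alarmin calprotectin, were at 0 and 1.76 CPM in the gated cells of 8M, at 907 and 544 CPM in 17F and at 561 and 370 CPM in 17M, and at 0 in all control mice. Other cells of 17F and 17M held 2019 and 2328 CPM of S100a8. Pi15 and Lgi2 were also lowest in 8M, with 14.1 and 8.79 CPM in 8M, 153 and 132 CPM in 17F and 174 and 128 CPM in 17M. Cyp2f2 (348, 44.1 and 4.04 CPM), Ces1d (151, 25.6 and 5.38 CPM), Dcn (195, 20.9 and 12.1 CPM) and the interferon-induced Ifi27l2a (251, 25.6 and 1.35 CPM) were highest in 8M. Of these 4 only Ifi27l2a was low in controls, at 0 to 20.7 CPM, so for the other 3 mouse 8M was the nearest to control. Over the 510 called genes without a copy, 8M was the ESCC mouse nearest to control in 321 (62.9%), 17F in 89 and 17M in 100. Genes and mice were chosen on these levels, which are given without a test.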

How the data were processed

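Per the labels and the study's methods, the authors extracted barcodes with UMI-tools 1.0.0, aligned reads with STAR 2.7.3 to GRCm38, assigned them with featureCounts and deposited UMI counts per gene and cell, integers with no scaling, over 17541 genes, with 1500 cells for each condition. Counts of gated cells and of all other cells were summed per mouse (both libraries) and compared with edgeR 4.0.16 in R 4.3.3 (quasi-likelihood test with TMM scaling and filterByExpr, Benjamini-Hochberg adjustment, threshold 0.05), with DESeq2 1.42.0 as an alternative. CPM values are UMIs per 1000000 UMIs of the summed cells. They do not carry the TMM factors, which the fold changes do. In the gated cells these factors were 0.823 to 0.911 in the ESCC mice and 1.02 to 1.10 in the control mice. Ranges and overlaps between mice are given in CPM. Control ages were pooled. Shares were compared by exact permutation tests. Doublets were called with Scrublet in scanpy 1.11.5. The procedure was tested on simulated data.

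The members and lists were chosen with earlier results of these data known. Named were the genes of the gate; per direction, the 12 genes with the largest fold change between ESCC and control among those called, whose mean log2 CPM reached 5 and whose mice did not overlap; 6 per direction for the interaction; 10 per direction for gated against other cells, of which 7 were higher; 8 that differed most among the ESCC mice; and up to 4 called genes per list. The same rule over genes without a copy, and other list members in the text, were added after values were seen. A copy was another gene of GENCODE M21 sharing at least 10% of the 31-base sequences in the last 300 bases of a transcript; 17350 genes were matched. Promoters came from RefSeq (GRCm38.p6). Alternatives covered the cells, filter, normalization, library, control age, copies and each mouse left out. EoE cells were not used, since none passed the gate. Sums of 48322 to 98829 UMIs per control mouse limit the precision for low genes, and floors cover counting error only. Some results are not reported here.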

Additional observations from a re-analysis of the deposited data

Results flagged for a closer look

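In a group of control mice, 1 mouse stood far from the other 5 for 2 of 42 measures checked, where chance gives about 1 in 20. For B2m, mouse old-3 had 973 CPM in gated cells and the next mouse 202 CPM. For LOC102638448, mouse young-1 had 10.2 CPM, which is 1 UMI, and the other control mice 0, so this difference rests on that UMI alone.

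The difference between gated and other cells was another one in ESCC than in control for the genes named in the test of the interaction, given on the log2 scale as ESCC minus control. It was positive for Slc7a11 (5.51), Grhl1 (4.53), Pea15a (4.31), Sgpp2 (4.14), Spink5 (4.11) and Crabp2 (3.92). It was negative for Rgs2 (-2.31), Urah (-2.26), Igfbp3 (-2.18), Krt17 (-2.11), Krt6a (-1.98) and Upk3bl (-1.94).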

How the results depend on the processing

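No gene called both in the comparison of ESCC with control as reported and under an alternative changed sign, though some alternatives tested fewer of the called genes (330 of 728 in thinned cells), and DESeq2 kept 661 of the 728 calls between ESCC and control in the same direction. Of the values for named genes in that comparison under the alternatives, 2028 kept their side of the threshold and 119 lost it. The counts moved more. Genes higher in ESCC numbered 398 in the comparison as reported, 1006 with no filter on low counts, 160 with cells thinned to 1000 UMIs, 232 with a basal share of at least 0.8, 200 and 207 with the first or second library only, and 246 without genes with a copy, ribosomal protein and unmatched genes. Leaving out these genes, an alternative chosen after seeing the data, lowered the share of higher calls from 54.7% to 48.3%. Genes lower in ESCC numbered 330, with 139 in thinned cells, 196 at the stricter basal share and 189 and 188 by library. With each mouse left out in turn, 308 to 454 genes were higher and 219 to 448 lower, fewest lower without 17F. For the interaction (124 and 60 genes), DESeq2 called 42 and 33, thinned cells gave 34 and 9 and the stricter share 71 and 9. Leaving out each mouse gave 60 to 154 and 17 to 95. The difference in the share of gated cells was 24.7 points in cells thinned to 1000 UMIs, and 8.55 to 15.5 points with a mouse left out. These shares were taken after thinning, which let cells of 17M pass that had failed the gate at full depth. Genes at least 2-fold higher in gated than in other ESCC cells numbered 24 with a pseudocount of 1 and 12 with each shared barcode used once (added after seeing the data), and 12 to 26 were higher and 102 to 144 lower with an ESCC mouse left out. Fewer genes passed the filter in thinned cells and in single libraries; other causes were not tested. Mice could not be paired across groups, since the groups held different mice. Within a mouse, gated and other cells were paired in the test of the interaction.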
